A study of Vitis vinifera with 8 samples.

Results

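The genes described here are 33 neighbouring grapevine genes whose identifiers run from VIT_03s0038g00930 to VIT_03s0038g01300 on chromosome 3, a stretch that holds a tandem group of SAUR genes. They were taken by identifier alone, with no use of a measured value, and each was read by 1 probe of an array that carried 34369 probes other than controls. Of the 33 genes, 16 were annotated as auxin-responsive (13 as auxin responsive SAUR proteins, VIT_03s0038g00940 and VIT_03s0038g01130 simply as auxin-responsive, and VIT_03s0038g01220 as auxin-induced protein 15A), 3 carried another annotation and 14 had none in the sources used here.

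The arrays compared leaves of *Vitis vinifera* cv Sultana plantlets grown in vitro, aged 6 weeks per the labels, 7 d after vacuum infiltration with *Agrobacterium tumefaciens*. OXNAC33 plants had received VviNAC33, a NAC-family transcription factor gene, under the constitutive CaMV 35S promoter, and Control plants had received the vector with a non-coding sequence. Expression was transient, so the leaves mixed transformed and untransformed cells, and both groups had met the bacterium. Each group gave 4 arrays, each from 1 plant (a pool of apical leaves), which are named here by group and replicate number (Control 1, OXNAC33 1 and so on). The OXNAC33 plants were those of 8 infiltrated with the highest VviNAC33 transcript level by quantitative PCR, against 7 Control plants infiltrated, so that group was selected on the overexpressed gene.

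SAUR genes (small auxin up RNA) are among the first genes that auxin induces in plants. They encode small proteins, are often arranged in tandem, and in *Arabidopsis* several of their proteins inhibit phosphatases that switch off plasma membrane proton pumps, which favours cell expansion. In leaves their transcripts are typically most abundant while the blade is still growing. AUX/IAA proteins repress, and auxin response factors mediate, transcription in response to auxin, GH3 enzymes conjugate the hormone to amino acids, and PIN and AUX1 proteins carry it out of and into cells.

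Levels are given as log2 of the processed spot intensity over the 75th percentile of the same array, so 0 is the level of that percentile, and a difference of -1 is a halving. Between 73.8% and 84.1% of probes were well above background on an array, and the 2 highest shares were those of Control replicates 1 and 2. The arrays fell on 3 scan dates, each with both groups: replicates 1 and 2 on date 1, replicate 3 on date 2 and replicate 4 on date 3. On dates 1 and 2 the groups were on different slides, so slide and group cannot be told apart there, and only the replicate 4 arrays shared a slide. All 6 leaf markers of photosynthetic tissue were well above background on all 8 arrays. The log2 of their summed intensities spanned 5.57 to 6.53 in Control and 5.11 to 6.35 in OXNAC33. Most of that sum was 1 gene, ribulose-phosphate 3-epimerase, at 5.25 to 6.28 in Control and 4.81 to 6.09 in OXNAC33. The mean of each of the 6 markers was lower in OXNAC33, by 0.12 to 0.70 on the log2 scale, and none passed the test. LHCA5, a light-harvesting protein of photosystem I, had the largest difference, -0.70 (SE 0.49, limma adjusted p = 0.710), which passed the unadjusted threshold with the replicate block (limma adjusted p = 0.329). The part of these shifts in the results below was not tested. VviNAC33 itself read 0.14, -0.75, -1.15 and -1.37 on Control replicates 1 to 4 and 1.15, 0.59, -0.13 and -1.14 on OXNAC33 replicates 1 to 4. OXNAC33 3 and OXNAC33 4 were thus within the range of the Control arrays, although above the Control array of their own scan date by 1.02 and 0.24. The difference of 0.90 (SE 0.52, n = 4 and 4) did not pass the test (limma p = 0.121, adjusted p = 0.666, two-sided exact permutation p = 0.2). Pairing the arrays by replicate number in limma brought the same difference past the unadjusted threshold (adjusted p = 0.280). Where this probe lies relative to the transferred sequence was not known, so it is a weak check of the labels.

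Most of the run was expressed in these leaves. The signal was well above background on all 8 arrays for 29 of the 33 genes, among them all 16 with an auxin annotation and the 3 with another annotation. VIT_03s0038g01150 was above background on 4 Control and 3 OXNAC33 arrays, and VIT_03s0038g01010 on 3 and 2. VIT_03s0038g00930 was detected only on Control replicates 1 and 2, and VIT_03s0038g01140 on no array, so neither entered the test and no fold is given for them. The comparison was therefore made on 31 genes of the run among 26579 probes that were well above background on at least 4 arrays.

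Transcript levels of the run were lower in OXNAC33 leaves for most genes. The difference was below 0 for 27 of the 31 genes tested, against 45.3% of all probes tested, and the median difference was -1.21 on the log2 scale, against 0.04 over all probes. At an unadjusted limma p under 0.05 with at least a 1.5 fold change, cutoffs that the study's methods applied with another test, 12 genes were lower and 0 were higher, where 3.11% of all probes were called lower and 2.42% higher. The methods' own test, which assumes equal variances and takes each probe alone, called at the same cutoffs 3 genes lower and 0 higher, against 1.92% and 1.56% of all probes. No gene of the run, and no probe of the array, passed an adjusted p of 0.05 in limma with Benjamini-Hochberg adjustment (the lowest adjusted p was 0.626 in the run and 0.406 over all probes, and 7.77% of all probes had an unadjusted p under 0.05). The groups did not overlap for 2 genes, VIT_03s0038g01060 and VIT_03s0038g01270, both lower in OXNAC33, and 0 were higher without overlap, against 1.76% and 2.35% of all probes. Both genes were in the study's lists drawn from these arrays. In whole leaves, fewer cells that express a gene and less RNA per cell cannot be told apart. The number called lower depended on single arrays: it was 7 without Control 2, 4 without Control 3, 3 without Control 4, 3 when OXNAC33 1 was dropped, 7 when OXNAC33 3 was dropped, and 22 when OXNAC33 4 was dropped. The number of all probes called in either direction moved too, from 1469 to 1117, 1903, 1338, 907, 2141 and 2451 in the same order. When limma paired the arrays by replicate number, 16 genes of the run were lower and 0 higher, against 4.93% and 3.92% of all probes, and 0.00752% of all probes but no gene of the run passed the adjusted threshold (lowest adjusted p in the run 0.213).

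**Figure D1:**
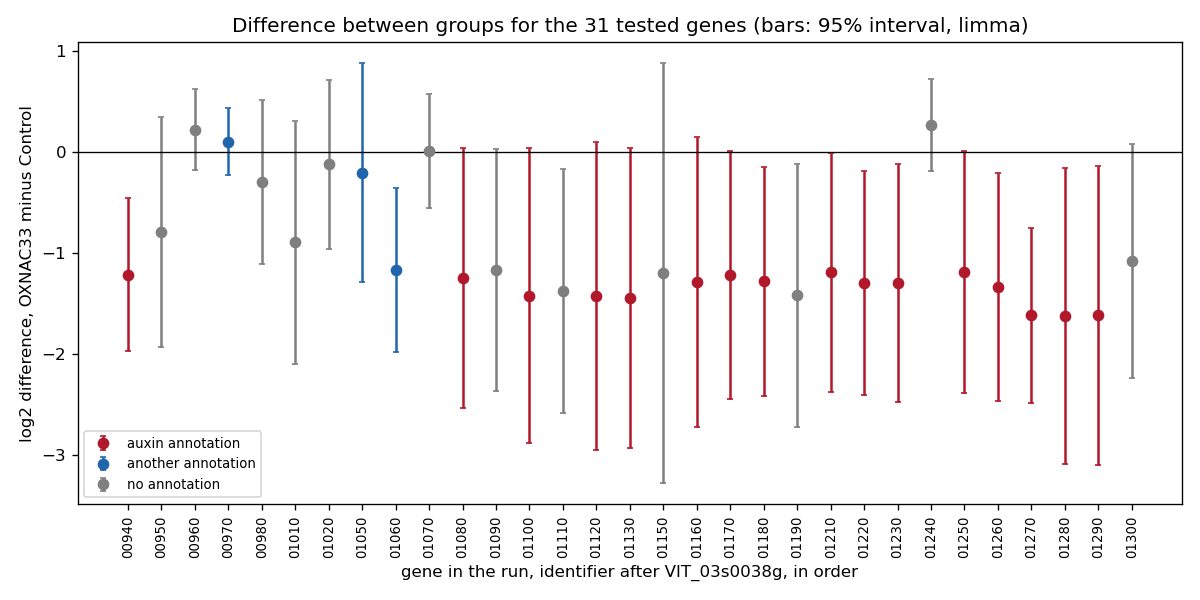
Difference in log2 level (OXNAC33 minus Control, y axis) of the 31 tested genes in the order of their identifiers (x axis), with the 95% interval of the limma fit on 4 and 4 arrays as bars. The auxin-annotated genes, in red, all lie between -1.62 and -1.19, and 12 of the 31 intervals leave out 0.

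The lower levels were not spread evenly along the run. Among the 22 tested genes from VIT_03s0038g01070 on, the median difference was -1.29 and 10 genes were called lower. Among the 9 before it the median was -0.30 and 2 genes were called lower, VIT_03s0038g00940 and VIT_03s0038g01060. Over all probes 3.11% were called lower. This division point was chosen after the values were seen and the 2 stretches were not compared by a test. The 4 genes with a difference above 0 were VIT_03s0038g00960 (0.22), VIT_03s0038g00970 (0.10), VIT_03s0038g01070 (0.01) and VIT_03s0038g01240 (0.27), and none of them passed the test.

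The auxin-annotated genes gave similar differences. All 16 were lower in OXNAC33, by 1.19 to 1.62 on the log2 scale with a median difference of -1.30, and 9 of them passed the unadjusted threshold. The 9 were VIT_03s0038g00940, VIT_03s0038g01180, VIT_03s0038g01210, VIT_03s0038g01220, VIT_03s0038g01230, VIT_03s0038g01260, VIT_03s0038g01270, VIT_03s0038g01280 and VIT_03s0038g01290. The annotations came from the study's lists of changed genes, so they are not independent of the measurements. The 4 genes listed there from these very arrays were all called lower, which their choice favours, so these calls are no independent evidence. Of the 12 listed only from stably transformed plants 5 were called lower, with all 12 differences below 0 and a median of -1.29. The SD between replicates was larger in OXNAC33 than in Control for all 16 (median SD 1.05 against 0.51). OXNAC33 3 was the lowest of the 8 arrays for 14 of the 16 genes, OXNAC33 1 and OXNAC33 3 lay below the Control range for all 16, and for 15 of them OXNAC33 4 was within that range.

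**Figure D2:**
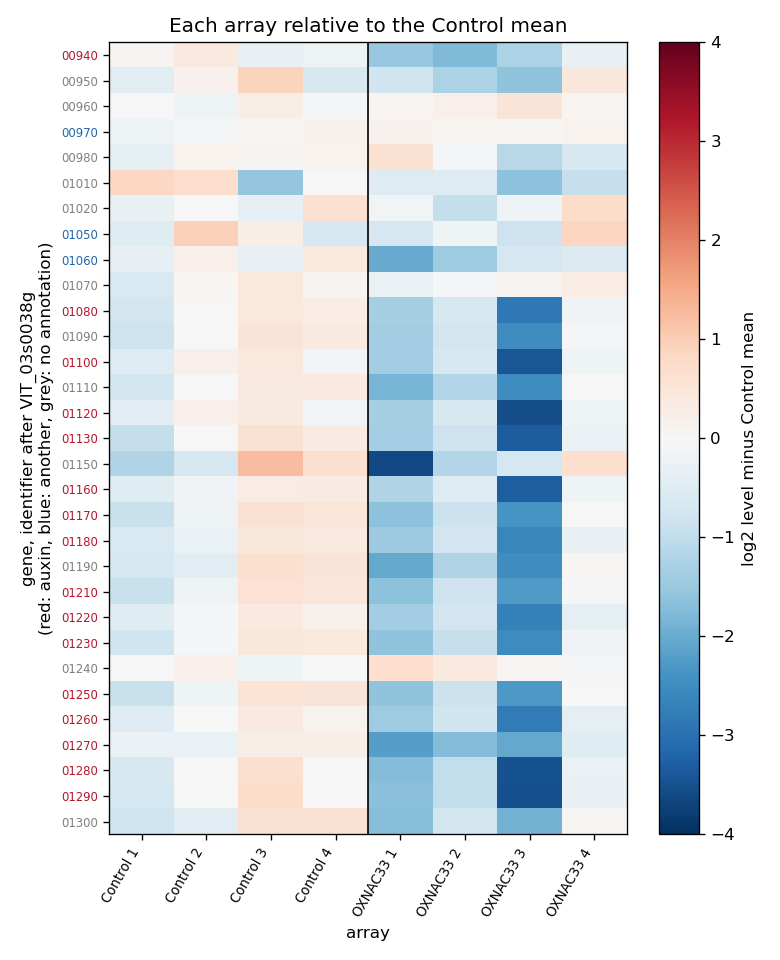
Log2 level of the 31 tested genes (rows, in order along the run) on each of the 8 arrays (columns), minus the mean of the 4 Control arrays, with blue for lower and red for higher. The darkest blue is in OXNAC33 3 from VIT_03s0038g01080 on, while OXNAC33 4 is close to the Control mean in most rows.

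VIT_03s0038g01280, an auxin-responsive SAUR protein gene, had the largest difference of the run. Its log2 level was -0.73, -0.10, 0.55 and -0.06 on Control replicates 1 to 4 and -1.81, -1.08, -3.58 and -0.35 on OXNAC33 replicates 1 to 4. OXNAC33 3 was far below every other array, and OXNAC33 4 lay among the Control values, so the groups overlapped. The difference of -1.62 (SE 0.64, 3.08-fold lower) had limma p = 0.0337, adjusted p = 0.636 and an exact permutation p of 0.0571.

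VIT_03s0038g01290, the neighbouring SAUR gene, had similar values. Control replicates 1 to 4 read -1.16, -0.49, 0.26 and -0.47, and the OXNAC33 arrays read -2.14, -1.45, -3.99 and -0.77. The difference was -1.62 (SE 0.65), with limma p = 0.0361, adjusted p = 0.636 and an exact permutation p of 0.0571. The call was lost with the replicate block (limma adjusted p = 0.405). When OXNAC33 3 was left out, the differences of VIT_03s0038g01280 and VIT_03s0038g01290 were -1.0 and -0.99.

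VIT_03s0038g01270, an auxin-responsive SAUR protein gene, was the auxin-annotated gene whose groups stood fully apart. It read -2.60, -2.60, -2.09 and -2.07 in Control and -4.55, -4.08, -4.39 and -2.82 in OXNAC33, so that the highest OXNAC33 array was below the lowest Control array. The difference was -1.62 (SE 0.38, 3.07-fold lower), with limma p = 0.00243, adjusted p = 0.626 and an exact permutation p of 0.0286, the smallest that 4 against 4 arrays allow. Here OXNAC33 1 was the lowest array, and the difference on the 3 scan dates was -1.72, -2.30 and -0.75.

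The next auxin-annotated genes by size of difference were VIT_03s0038g01130 and VIT_03s0038g01120, and neither passed the threshold. VIT_03s0038g01130, annotated as auxin-responsive, read -0.65, 0.31, 0.90 and 0.62 in Control and -1.07, -0.53, -3.04 and 0.04 in OXNAC33, a difference of -1.45 (SE 0.65, limma p = 0.0546, adjusted p = 0.636, exact permutation p = 0.0857). VIT_03s0038g01120, a SAUR protein gene, read 1.04, 1.69, 1.84 and 1.37 in Control and 0.15, 0.85, -2.07 and 1.32 in OXNAC33, a difference of -1.43 (SE 0.67, limma p = 0.0632, adjusted p = 0.637, exact permutation p = 0.0571). In both genes OXNAC33 3 was far below the next lowest array, and without it the differences were -0.82 and -0.72.

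The smallest differences among the auxin-annotated genes were those of VIT_03s0038g01210 and VIT_03s0038g01250, both SAUR protein genes. VIT_03s0038g01210 read 1.23, 1.92, 2.69 and 2.60 in Control and 0.47, 1.27, -0.14 and 2.07 in OXNAC33, a difference of -1.19 (SE 0.52, limma p = 0.0485, adjusted p = 0.636, exact permutation p = 0.143). VIT_03s0038g01250 read 1.32, 2.05, 2.77 and 2.74 in Control and 0.62, 1.35, -0.07 and 2.22 in OXNAC33, with the same difference of -1.19 (SE 0.52, limma p = 0.0515, adjusted p = 0.636, exact permutation p = 0.143). The 2 genes thus lay on either side of the threshold with nearly the same values on every array, and with the replicate block both passed it (limma adjusted p = 0.380 for each).

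**Figure D3:**
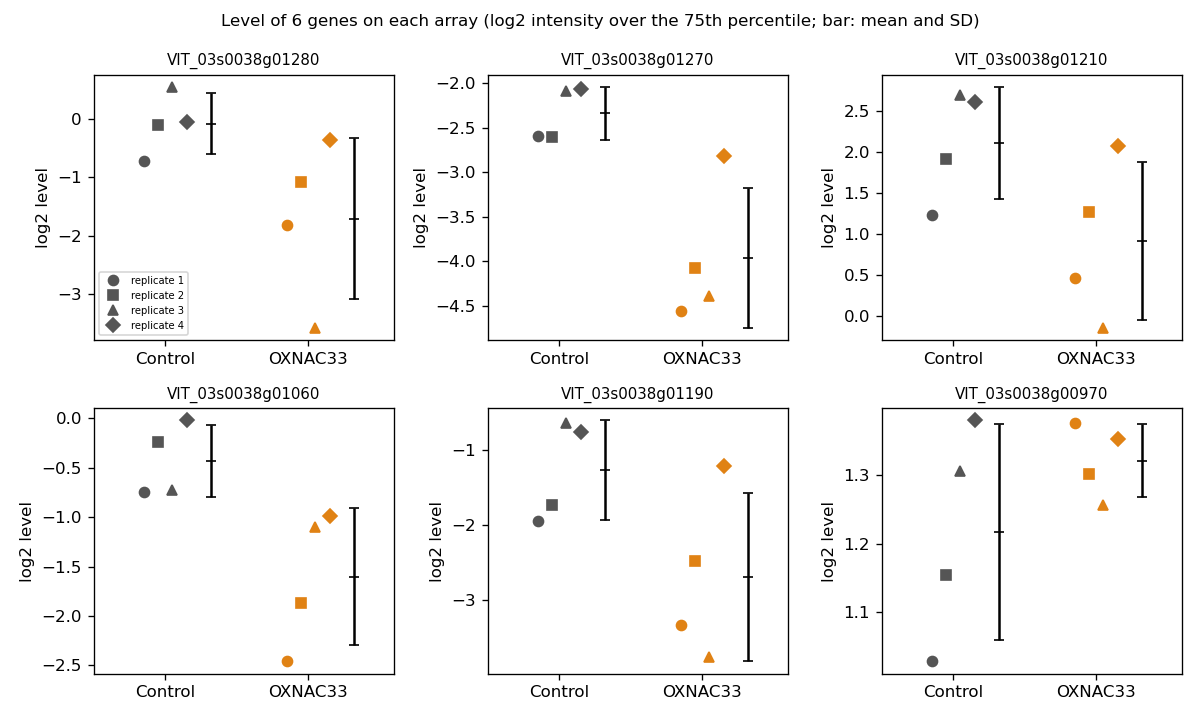
Log2 level (intensity over the 75th percentile, y axis) of 6 genes of the run on the 4 Control and 4 OXNAC33 arrays, with the replicate number given by the marker shape and the mean and SD beside the points. Only VIT_03s0038g01270 and VIT_03s0038g01060 have groups that do not overlap, and VIT_03s0038g00970 is at nearly the same level in both.

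The 3 genes with another annotation each behaved differently. VIT_03s0038g01060, annotated as a metalloprotease, a class of metal-dependent enzymes that cut proteins, read -0.75, -0.23, -0.73 and -0.02 in Control and -2.46, -1.86, -1.10 and -0.98 in OXNAC33. The groups did not overlap, and the difference was -1.17 (SE 0.36, 2.25-fold lower, limma p = 0.0105, adjusted p = 0.636, exact permutation p = 0.0286). The study listed this gene from these very arrays, so its place among the annotated genes is not independent of these values. VIT_03s0038g00970 and VIT_03s0038g01050 were listed from stably transformed plants. Unlike in most of the SAUR genes, OXNAC33 replicates 1 and 2 were the lowest arrays of VIT_03s0038g01060.

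VIT_03s0038g00970, annotated as dynamin-like protein 2b (dynamins are GTPases that pinch membranes), read 1.03, 1.15, 1.31 and 1.38 in Control and 1.37, 1.30, 1.26 and 1.35 in OXNAC33. Its difference was 0.10 (SE 0.14, limma adjusted p = 0.852, exact permutation p = 0.343), and the 95% interval, -0.23 to 0.43, did not reach the differences of the auxin-annotated genes. VIT_03s0038g01050, annotated as phenylalanine-tRNA ligase, which charges transfer RNA for protein synthesis, read -3.65, -2.20, -2.92 and -3.84 in Control and -3.81, -3.33, -3.99 and -2.28 in OXNAC33. The values crossed, and the difference of -0.20 (SE 0.47, 95% interval -1.28 to 0.88, limma adjusted p = 0.916, exact permutation p = 0.714) was smaller than the spread in either group.

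The 12 tested genes without an annotation were split. Their median difference was -0.84, 9 were below 0, and 2 were called lower, VIT_03s0038g01190 and VIT_03s0038g01110. VIT_03s0038g01190 read -1.95, -1.73, -0.64 and -0.77 in Control and -3.33, -2.48, -3.75 and -1.21 in OXNAC33, a difference of -1.42 (SE 0.57, limma p = 0.0357, adjusted p = 0.636, exact permutation p = 0.0857). VIT_03s0038g01110 read 0.88, 1.61, 1.97 and 2.02 in Control and -0.25, 0.44, -0.89 and 1.65 in OXNAC33, a difference of -1.38 (SE 0.53, limma p = 0.0298, adjusted p = 0.636, exact permutation p = 0.0857). In both, OXNAC33 3 was the lowest array and OXNAC33 4 was among the Control values, so the groups overlapped.

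VIT_03s0038g01150 had a low signal that spread widely. It read -5.76, -5.22, -3.30 and -3.91 in Control and -8.15, -5.73, -5.25 and -3.86 in OXNAC33, where replicate 1 was not well above background. The difference of -1.20 (SE 0.91, limma adjusted p = 0.719, exact permutation p = 0.343) did not pass the threshold, and with the replicate block it passed it unadjusted (limma adjusted p = 0.388). The difference was -0.40 without OXNAC33 1, -0.78 without Control 3, -1.83 without OXNAC33 4 and -0.45 with normexp background correction. VIT_03s0038g00950, the gene with the highest mean intensity of the run, read 2.45, 3.03, 3.77 and 2.21 in Control and 2.08, 1.61, 1.27 and 3.32 in OXNAC33, a difference of -0.79 (SE 0.50, limma adjusted p = 0.681, exact permutation p = 0.2). Its direction changed between scan dates, at -0.89, -2.50 and 1.11.

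Scan date moved with the size of the difference. Over the 31 tested genes the median difference was -0.70 on scan date 1, -2.85 on date 2 and -0.43 on date 3, and for the auxin-annotated genes it was -0.80, -3.14 and -0.50. All 16 auxin-annotated genes were lower in OXNAC33 on each of the 3 dates, as were 22 of the 31 genes, although dates 2 and 3 held 1 array of each group. The difference was most negative on date 2 for 25 of the 31 genes. Whether the dates differ in the response was not tested. With the scan date as a block, 16 genes of the run were called lower and 0 higher (5.14% and 3.9% of all probes), with a lowest limma adjusted p of 0.203. Leaving out date 3, a setting chosen after seeing the data, gave 20 lower and 0 higher (4.7% and 3.69% of all probes). With slide as a random block, 5 genes were lower and 0 higher (2.71% and 2.6% of all probes). The smallest median difference, that of date 3, was on the slide that held both groups. Relative to the Control mean, the median auxin-annotated gene stood at -0.62, -0.05, 0.45 and 0.28 on Control replicates 1 to 4 and at -1.49, -0.83, -2.75 and -0.22 on OXNAC33 replicates 1 to 4. Among the OXNAC33 arrays, these genes were lowest on OXNAC33 3 and nearest the Control mean on OXNAC33 4. The VviNAC33 level was highest on OXNAC33 1 (1.15) and lowest on OXNAC33 4 (-1.14). A relation between the 2 was not tested. The median of the auxin-annotated genes was -0.84 when OXNAC33 3 was left out and -1.66 when OXNAC33 4 was.

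**Figure D4:**
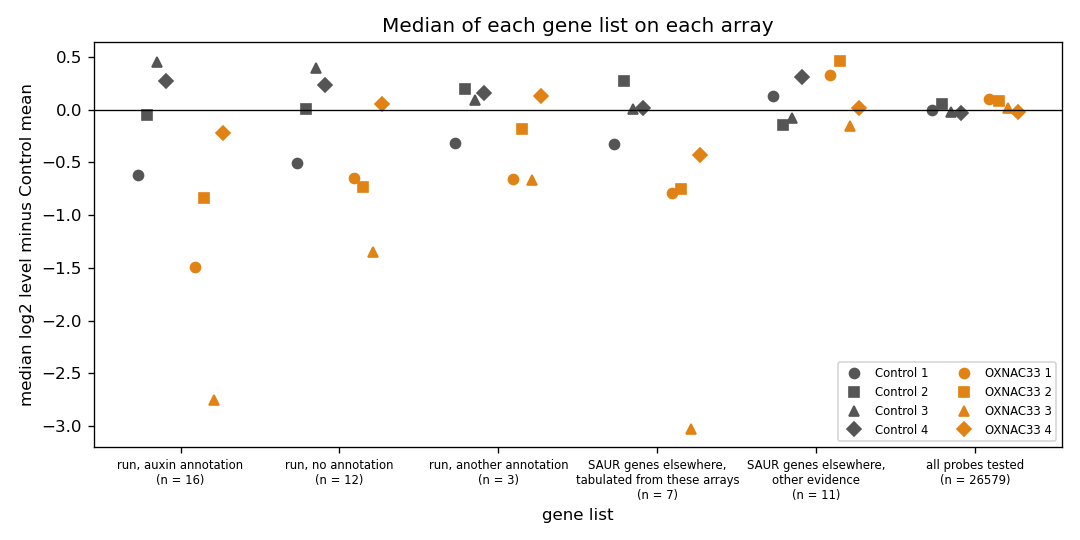
Median log2 level of 6 gene lists on each array, minus the mean of the Control arrays (y axis), for the 3 annotation classes of the run, SAUR genes elsewhere in the genome that the study listed from these arrays, those listed on other evidence, and all probes tested (x axis). OXNAC33 3 (triangle) is at -2.75 for the auxin-annotated genes of the run and at -3.02 for the SAUR genes elsewhere listed from these arrays. It is at -0.15 for those listed on other evidence and at 0.01 over all probes.

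Many genes of the run also varied together over the arrays within a group. With the group means removed, the median Pearson's r between pairs of auxin-annotated genes over the 8 arrays was 0.94 (120 pairs, from 0.14 to over 0.99), and 95 of these pairs had an r over 0.8. Over all 465 pairs of the run the median was 0.59, and 86 pairs were below 0. Before VIT_03s0038g01070 the median was 0.04 and no pair exceeded 0.8. These values are a description over arrays that share scan dates and slides. OXNAC33 3 was the lowest of the 8 arrays for 14 of the 16 auxin-annotated genes, so 1 array can carry much of their r. Values of r without that array, or over all probes, were not computed. An r over 0.99 was reached by 17 pairs among 13 genes, including VIT_03s0038g01220 with VIT_03s0038g01260, and VIT_03s0038g01170 with VIT_03s0038g01210 and VIT_03s0038g01250. Tandem SAUR genes have similar sequences, probe sequences were not analysed here, and signal from 1 gene read by the probe of another cannot be told apart from shared expression. The exceptions among the auxin-annotated genes were VIT_03s0038g00940, whose median r with the others was 0.23, and VIT_03s0038g01270, at 0.71. VIT_03s0038g00940, annotated as auxin-responsive, lies apart from the rest at the start of the run, and its difference of -1.21 (SE 0.33, limma p = 0.00611, adjusted p = 0.636, exact permutation p = 0.0571) came with OXNAC33 2 as the lowest array.

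**Figure D5:**
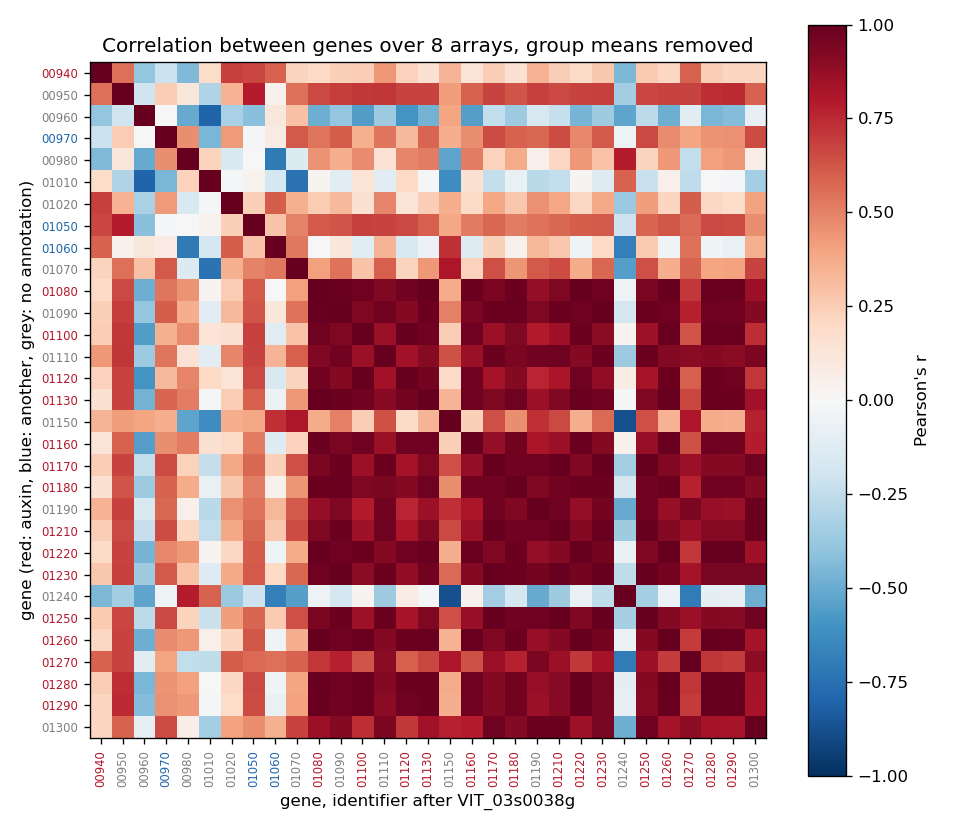
Pearson's r between the 31 tested genes (both axes, in order along the run) over the 8 arrays after removal of the group means, from -1 in blue to 1 in red. The red block from VIT_03s0038g01080 to VIT_03s0038g01300 is broken by VIT_03s0038g01150 and VIT_03s0038g01240. Between the genes before VIT_03s0038g01070 r is mixed, from -0.80 to 0.79.

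SAUR genes outside the run did not share 1 direction. Of 19 such genes listed, 18 were tested, with a median difference of -0.69. Of these, 4 were called lower and 0 higher, against 3.11% and 2.42% of all probes. All 4 belonged to the 7 that the study's lists drew from these arrays. All 7 differences were below 0 (median -1.34), which their choice favours, so they are no independent evidence. Among the other 11 none was called, 4 differences were below 0 and the median was 0.12. With the replicate block 2 of these 11 were called lower, against 4.93% of all probes. They were VIT_04s0023g00490 (-1.92, limma adjusted p = 0.339) and VIT_19s0027g00510 (-0.71, limma adjusted p = 0.385), named here after their values were seen. On OXNAC33 3 the median level minus the Control mean was -3.02 for the 7 genes and -0.15 for the 11, against -2.75 for the auxin-annotated genes of the run. The difference between these lists and the run was not tested. VIT_03s0038g03780 and VIT_03s0038g03490, SAUR genes further along the same scaffold and both among the 7, had the smallest p. Their differences were -0.75 (SE 0.27) and -1.34 (SE 0.52), with a limma adjusted p of 0.636 and an exact permutation p of 0.0286 each. VIT_03s0038g03780 was not well above background on OXNAC33 3. With normexp background correction it differed by -0.43 and was not called, while VIT_03s0038g03490 differed by -0.79 and was called at the unadjusted threshold.

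Other auxin genes gave mixed results, where 3.11% of all probes were called lower and 2.42% higher. None of 7 AUX/IAA genes was called (0 had an unadjusted limma p under 0.05) and their median difference was -0.40, with IAA16 at -0.60 (adjusted p = 0.640) and IAA9 at -0.62 (adjusted p = 0.648). Of 11 auxin response factors 2 were called lower, VIT_10s0003g04100 (auxin response factor 3, -0.60, adjusted p = 0.636) and VIT_06s0004g03130 (auxin response factor 4, -0.91, adjusted p = 0.636), both from lists drawn from these arrays, and the median was -0.02. Among 6 auxin conjugation genes 1 was lower and 2 were higher in limma. VIT_07s0005g00090, a GH3 gene, differed by -1.83 (SE 0.45, adjusted p = 0.636), and VIT_06s0004g07230, an indole-3-acetate glucosyltransferase, differed by 1.94 (SE 0.41, adjusted p = 0.573), both in lists drawn from these arrays. The other gene called higher, VIT_07s0129g00660, is the GH3 gene GH3.2 and was listed on other evidence (named after its values were seen). It differed by 2.39 (SE 0.67, limma adjusted p = 0.636), was well above background on only 2 Control arrays, and differed by 0.68 with normexp background correction, which did not pass.

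Of 9 auxin transport genes 8 were tested, with a median difference of -0.98. In the main fit 3 were called lower and 0 higher, against 3.11% and 2.42% of all probes. With the replicate block 5 were lower and 0 higher, against 4.93% and 3.92%. VIT_08s0040g01220, annotated as auxin efflux carrier protein 10, was well above background on 4 Control arrays and not well above background on any OXNAC33 array. It met the filter of 4 arrays through Control alone, which favours a lower call, so this call is no independent evidence. In the main processing it was at least 2.12-fold lower (limma adjusted p = 0.586). The bound sets the Control mean against the lowest signal well above background on each OXNAC33 array. This bound did not hold with normexp background correction, where the gene differed by -0.61, less than a halving, and was not called. VIT_17s0000g02420, annotated as PIN3, differed by -1.04 (SE 0.24, limma adjusted p = 0.624). It and VIT_13s0067g00330 (AUX1, -0.84, limma adjusted p = 0.636) were in lists drawn from these arrays, so these calls are not independent of that choice. Of the 8 differences 2 were above 0, among them VIT_01s0011g04860, also annotated as PIN3 (0.28, SE 0.20, limma adjusted p = 0.714). AUX1 and VIT_01s0011g04860 were named after their values were seen.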

How the data were processed

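RNA from 4 Control and 4 OXNAC33 plants was hybridised in 1 colour to a custom grapevine array. The authors deposited scanner output of Agilent Feature Extraction (version 10.5.1.1), from which the processed signal, a background-corrected spot intensity, was used. The deposited value table (intensity of 24631 probes) equalled this signal times 1 factor per array, which set the 75th percentile near 1655, and served as an alternative. Groups and replicate numbers came from the labels. Control spots and 140 outlier spots were left out, and no spot was saturated. Intensities were divided by the 75th percentile of the array and log2 transformed, and probes well above background on at least 4 of 8 arrays were fitted with limma 3.58.1 (R 4.3.3) on group alone, and p-values were adjusted by Benjamini-Hochberg over all 26579 probes. The script was tested on simulated data. Single genes also had a two-sided exact permutation test (scipy 1.17.1). P-values measure the spread between plants infiltrated in 1 experiment as far as the sources tell, and 4 arrays per group limit the precision.

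The genes with values on every array were the 5 auxin-annotated genes with the largest and the 2 with the smallest difference, all tested genes of another annotation, the 3 largest differences without annotation, and the gene of highest mean level; in other lists at most 2 genes with the smallest p were named. The members, lists and rules were chosen with earlier results of these data known. None of the run's identifiers matched the RefSeq gene table (0 matched), so symbols, coordinates and sequences were not used here; annotations were taken from the study's tables.

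Arrays with the same replicate number deviated together (r = 0.49, 0.25, 0.50 and 0.10 for numbers 1 to 4); they also shared a scan date. The numbers were taken to pair the samples and a fit with the replicate number as a block was run. Alternatives were median scaling, quantile normalization, normexp background correction (offset 50), array weights, other filters on dim probes, scan date and slide as blocks, the methods' t-test, and each array left out. Leaving out scan date 3 was chosen after seeing the data.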

Additional observations from a re-analysis of the deposited data

How the results depend on the processing

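The median difference of the run stayed below 0 under all 21 alternatives, between -0.82 without OXNAC33 replicate 3 and -1.61 without OXNAC33 replicate 4, and that of the auxin-annotated genes lay between -0.84 and -1.66 under the same 2 settings. No gene of the run was called higher or passed the adjusted threshold under any alternative. The count called lower, 12, was less stable: it was 19 with median scaling, 5 with slide as a random block, 3 with the methods' t-test (an unadjusted threshold; 0 after Benjamini-Hochberg adjustment), 20 without scan date 3, and 3 to 22 when 1 array was left out. Among the genes with full values, only VIT_03s0038g01050 changed direction, to 0.53 with slide as a random block, 0.11 without Control replicate 2 and 0.01 without OXNAC33 replicate 3 (from -0.56 to 0.11 when 1 array was left out); of the other settings for these genes, 232 kept their side of the threshold, 36 lost it and 22 gained it.

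The VviNAC33 difference passed the unadjusted threshold with array weights (1.25), with the replicate block (0.90), with the scan date block (0.90), without scan date 3 (1.12) and without OXNAC33 replicate 4 (1.32), and ranged from 0.56 to 1.32 when 1 array was left out. Over all probes 1469 were called, against 4277 with array weights, 937 with normexp, 2354 with the replicate block, 2403 with the scan date block, 926 with the t-test, 2228 without scan date 3, and 907 to 2451 when 1 array was left out. With median scaling the count over all probes was 1643, and with slide as a random block it was 1411. An adjusted p under 0.05 was reached by 2 probes with the replicate block and by 0 to 2 when 1 array was left out, none of them in the run. Beside the calls named in the report, the replicate block moved the run's count from 12 to 16. The causes were not tested. The probe of VIT_03s0038g01010 was not well above background on Control 3, OXNAC33 3 and OXNAC33 4. That of VIT_03s0038g01150 was not well above background on OXNAC33 1.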

Other observations

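Genes beside the run on the same scaffold were looked at after the results above were known. Of the 10 genes before it, VIT_03s0038g00820 to VIT_03s0038g00920, all were tested and none was called (limma, 0 had an unadjusted p under 0.05), 4 differences were below 0, and the median was 0.05. Of the 10 genes after it, VIT_03s0038g01310 to VIT_03s0038g01400, 1 was called lower, VIT_03s0038g01350 (-1.03, SE 0.30, limma adjusted p = 0.636), 6 were below 0, and the median was -0.04. Over all probes 3.11% were called lower. The run was not compared with its neighbours by a test. Among 30 groups of 4 arrays, for the genes with full values and VviNAC33, no array stood far enough from the other 3 to pass Dixon's criterion, which chance alone passes in about 1.5 of 30.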
